A study of Mus musculus with 72 samples.

Results

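Transcript levels of 7 genes of cholesterol synthesis and its feedback control, Srebf2, Insig1, Insig2, Hmgcs1, Sqle, Lss and Cyp51, were followed in C57BL/6 mice, in liver and in the suprachiasmatic nucleus (SCN), the brain's central clock. The members were taken by symbol and are 7 of the 22823 genes of the liver count table and 7 of the 15759 genes of the SCN table, and all 7 passed the filter on low counts in both tissues. For 11 days the animals were fed without limit, either on an isocaloric control diet or on MCD, a diet lacking methionine and choline that causes fatty liver. They lived in light and dark for 10 days and in constant darkness on day 11, when they were killed at circadian time (CT) 0, 4, 8, 12, 16 or 20 h, aged 8 to 12 weeks at purchase. Tissue, diet and time define 24 groups with 3 libraries apiece, 2 from males (replicates 1 and 2) and 1 from a female (replicate 3), 72 in all; the protocol names male mice only, and the sex of each library was taken from its own label. Liver RNA came from the left lobe, and SCN RNA from the laser-dissected nucleus on stained brain sections. The labels do not say which liver and SCN libraries came from 1 mouse. The list was named for synthesis and uptake, but no member encodes an uptake receptor, so it is described here as synthesis enzymes and their regulators.

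Cells make cholesterol from acetyl-CoA through mevalonate, squalene and lanosterol. When sterols in the endoplasmic reticulum run low, the transcription factor SREBP-2, encoded by Srebf2, travels with its escort SCAP to the Golgi, is cut there, and switches on the genes of the pathway. When sterols are plentiful, the INSIG proteins, encoded by Insig1 and Insig2, hold SCAP and SREBP-2 in the endoplasmic reticulum, and Insig1 is itself an SREBP target. Hmgcs1 makes HMG-CoA in the cytosol, Sqle oxidises squalene, Lss closes the ring to lanosterol, and Cyp51 removes a methyl group from lanosterol. The liver is a main site of this synthesis. The adult brain makes its own cholesterol, since lipoproteins do not pass from the blood into it.

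Total counts ran from 52.6 M to 86.7 M per liver library and from 23.3 M to 79.8 M per SCN library, and no member had fewer than 694 counts in any library. Of the 10 hepatocyte markers, 10 passed the filter in liver, with summed levels of 81800 to 125000 CPM (gene counts per library total, after TMM scaling) on control and 59900 to 127000 CPM on MCD. Of the 10 SCN markers, 10 passed in the SCN, with summed levels of 1900 to 3550 CPM on control and 2000 to 4580 CPM on MCD, and 1 (Rgs16) in liver; in the SCN the table holds 2 of the 10 hepatocyte markers. In liver, 6 of the 10 hepatocyte markers were called lower and 9 of the 10 macrophage markers higher on MCD (summed 327 to 807 CPM on control, 454 to 1060 CPM on MCD). Of 9 stellate cell markers tested 3 were called higher (summed 439 to 862 and 488 to 1050 CPM), and of 5 erythrocyte markers 4 were called lower (130 to 453 and 93.7 to 273 CPM). Over all liver genes, 46.6% were called for diet in either direction and 21.2% were called lower on MCD. The part of these cell types in the members' differences was not tested. Liver libraries fell into 21 with a low and 15 with a high level of the mitochondrial transcript mt-Nd6, with 8 and 10 libraries of the control diet and 13 and 5 of MCD; no member differed between these kinds in the test of a term for them, in which 3.51% of genes did. The column called control CT08 a in liver lay at 0.889 on a scale of 9686 diet-responsive genes on which control libraries of other times average -1 and MCD libraries 1, while control CT08 b lay at -1.07. Without this column, the members called for diet over all times and at CT08, for the liver rhythms, for sex in liver and for both comparisons of the tissues were the same; changes of calls at other times are given beside them, and the spreads, correlations and exon results include it. The 2 control CT08 male columns share a header name, so they are called a and b. Bulk RNA cannot tell fewer cells of a type from less RNA per cell.

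Of the 7 members in liver, Insig1 showed the greatest fall on MCD. On the control diet its level ranged from 128 to 701 CPM with a median of 393 CPM over 18 libraries, and on MCD from 58.5 to 380 CPM with a median of 176 CPM. All 18 MCD libraries lay below the control median. The mean CPM was lower on MCD at 6 of 6 times, though at CT08 the means were close (238 against 248 CPM) and the fitted log2 difference was 0.03. The difference of MCD minus control, averaged over the 6 times with sex as a covariate, was -0.96 ± 0.19 on the log2 scale (SE; 1.95-fold lower; edgeR quasi-likelihood test, adjusted p = 0.000192). Over all genes tested, 46.6% were called in this comparison, and 21.2% were called lower on MCD. Of the 7 members, 3 were called, all lower. That share is near the one for all genes in either direction and above the one for genes called lower, and was not tested.

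Insig2 also fell in liver, by a smaller margin. Its 18 control libraries ranged from 71.3 to 435 CPM (median 200 CPM) and its 18 MCD libraries from 70.7 to 333 CPM (median 161 CPM). The mean was lower on MCD at each of the 6 times. The groups did not overlap at CT16 alone, where the highest MCD value and the lowest control value both round to 153 CPM. The averaged difference was -0.41 ± 0.10 (SE, log2; adjusted p = 0.00164). Without replicate 1 of every group, Insig2 stood at -0.37 and did not pass (adjusted p = 0.0531), nor did it in libraries of high mt-Nd6 alone (-0.345, adjusted p = 0.0979). Scaling by library totals in place of TMM factors moved the median of all genes from 0.02 to 0.27 on the log2 scale. With that scaling, Insig2 stood at -0.15 (adjusted p = 0.23) and was no longer called, and its difference from the median gene was -0.43.

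Srebf2, the regulator that INSIG proteins restrain, did not pass the test in liver. It ranged from 49.9 to 101 CPM on control (median 70.5 CPM) and from 48 to 110 CPM on MCD (median 81.8 CPM). The averaged difference was 0.17 ± 0.08 (SE, log2; adjusted p = 0.0981; 95% interval from -0.0026 to 0.34). At CT08 alone the groups did not overlap: the control values were 49.9, 51.4 and 75.8 CPM and the MCD values 79.3, 81.1 and 87.6 CPM, with an adjusted p of 0.273. The lowest of these control values is control CT08 a, and without it the difference was 0.42 (adjusted p = 0.319). Scaling by library totals gave 0.42 (adjusted p = 1.51e-05), which exceeded that scaling's median of all genes by 0.14.

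The 4 enzymes had lower averages on MCD, and of these only Lss passed the test. Lss, the lanosterol-forming cyclase, fell by 0.71 ± 0.18 on the log2 scale (SE; 1.64-fold lower; adjusted p = 0.00173). Its control libraries ranged from 27.6 to 163 CPM (median 107 CPM) and its MCD libraries from 20 to 110 CPM (median 58.1 CPM), and 17 of the 18 MCD libraries lay below the control median. Sqle stood at -0.53 ± 0.28 (adjusted p = 0.12), Cyp51 at -0.38 ± 0.23 (adjusted p = 0.175) and Hmgcs1 at -0.18 ± 0.23 (adjusted p = 0.572). The intervals of these 3 genes allow from a fall of 1.10 for Sqle to a rise of 0.31 for Hmgcs1. Without MCD CT04 replicate 2, a male with the highest Hmgcs1, Sqle and Cyp51 levels of all MCD libraries, Sqle (-0.76, adjusted p = 0.0115) and Cyp51 (-0.58, adjusted p = 0.0194) were called too, Hmgcs1 stood at -0.40 (adjusted p = 0.0926), and the count of members called was 5 against 3. Without control CT08 a, Insig1 stood at -1.03, Insig2 at -0.38 and Lss at -0.79, all still called. Without replicate 3, which are the females, Lss stood at -0.53 (adjusted p = 0.09), Sqle at -0.19 (adjusted p = 0.734) and Hmgcs1 at 0.07 (adjusted p = 0.915), the other direction, as Hmgcs1 did with library totals (0.06, adjusted p = 0.849). Within the libraries of low and of high mt-Nd6 alone, Lss stood at -0.74 (adjusted p = 0.0738) and -0.76 (adjusted p = 0.183).

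**Figure D1:**
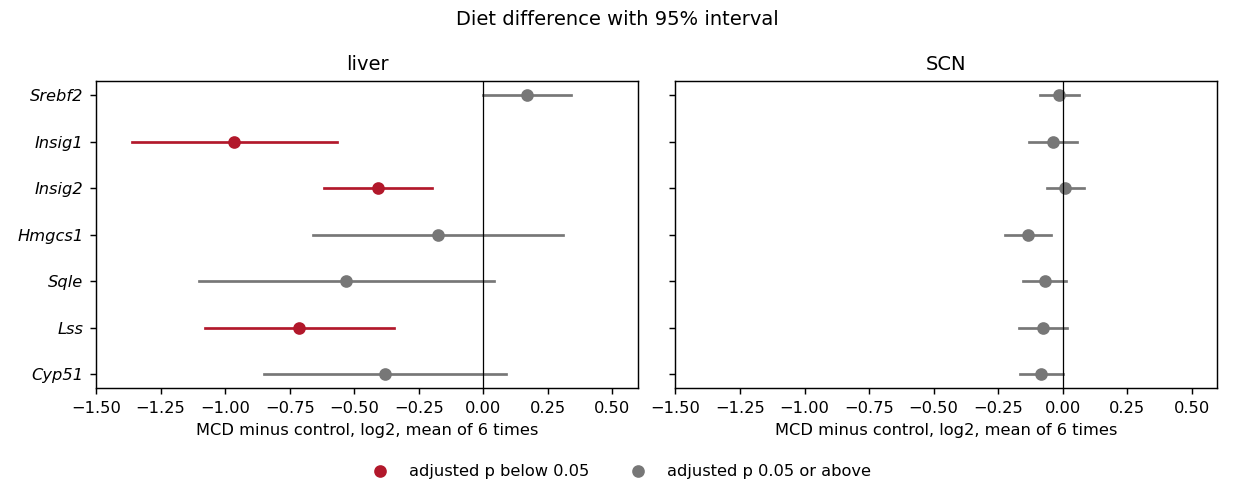
Difference of MCD minus control in log2 units, averaged over 6 circadian times, in liver and SCN; points are estimates and bars 95% intervals from the fits of 36 libraries each. Insig1, Insig2 and Lss in liver are the 3 called members, and the SCN intervals are narrow and near 0.

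At single times, the differences of the 4 enzymes were most negative at CT16 and CT20, and a difference between times was tested only as a difference of daily waves. At CT16, Lss read 121, 133 and 139 CPM in control mice against 35.8, 40.1 and 48.8 CPM in MCD mice. The groups did not overlap, and Lss fell by 1.66 ± 0.44 (SE, log2; adjusted p = 0.0145). Insig1 read 501, 629 and 647 CPM in control mice at CT16 and 161, 180 and 305 CPM on MCD, again without overlap, and fell by 1.45 ± 0.47 (adjusted p = 0.0442). Lss was also called at CT20, with 109, 127 and 163 CPM against 38, 57.5 and 62.9 CPM (-1.33 ± 0.44, adjusted p = 0.0484). Sqle read 97.2, 103 and 105 CPM in control mice against 24.8, 34.4 and 40.3 CPM in MCD mice at CT16. Its groups did not overlap and its difference was -1.64 ± 0.68, but it did not pass with edgeR (adjusted p = 0.114); it did with DESeq2 (adjusted p = 0.0417).

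Hmgcs1 and Cyp51 also had all 3 MCD values below all 3 control values at CT16 and at CT20, with adjusted p of 0.256 to 0.321. How many of all genes lay apart in this way was not counted, so these orders have no background. At CT12 the order was not so: Hmgcs1 read 54.4, 74.5 and 126 CPM in control mice against 46.1, 221 and 251 CPM in MCD mice (1.02 ± 0.57, adjusted p = 0.24). Of the 20249 genes, 12.5% were called at CT16 and 11.3% at CT20, where 2 and 1 of the 7 members were. No member was called at CT00, CT04, CT08 or CT12, where 12.6%, 18.2%, 1.30% and 15.2% of genes were called by edgeR. At an unadjusted p under 0.05 there were 1, 2, 1 and 0 members at these times, with DESeq2 1, 2, 0 and 0, and with limma 0, 1, 0 and 0. Leaving out replicate 1, 2 or 3 of every group left 0 members called at CT16 and at CT20. Without control CT16 replicate 1 or MCD CT16 replicate 3 alone, 0 members were called at CT16, and the Lss call at CT20 was kept in 10 of 36 fits that each left out 1 library. Without control CT08 a, Insig1 was called at CT00 and Insig1 and Insig2 at CT04.

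**Figure D2:**
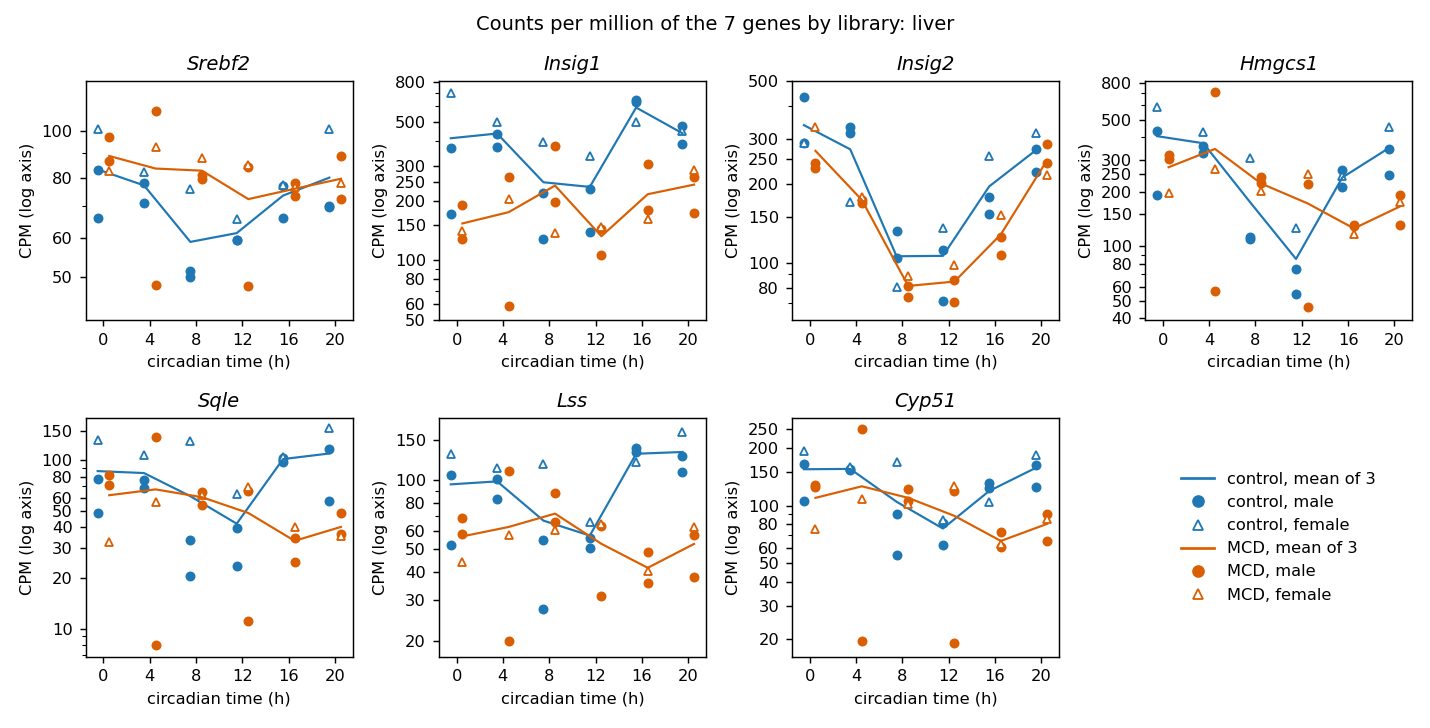
Level of each gene in CPM (log axis) against circadian time in the 36 liver libraries; circles are males, triangles females, lines the means of 3. At CT16, the MCD values of Insig1, Insig2, Hmgcs1, Sqle, Lss and Cyp51 all lie below the control values, though only 2 of the 7 members were called there. How many of all genes lie apart in this way was not counted. MCD CT04 replicate 1 and MCD CT12 replicate 2 are low in Srebf2, Insig1 and all 4 enzymes.

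Single mice of a group differed widely in the enzymes. At CT04 on MCD, Sqle read 7.99, 56.2 and 137 CPM, Hmgcs1 56.7, 267 and 710 CPM, and Cyp51 19.7, 108 and 250 CPM. In each of these genes replicate 1 was lowest, replicate 3 in the middle and replicate 2 highest. The standard deviation of Sqle around its group means, with sex adjusted, was 0.91 on the log2 scale, against a median of 0.31 over all genes. Among 1000 genes of nearest mean level, 99.6% varied less than Sqle, 98.5% less than Cyp51, 97.5% less than Lss and 96.7% less than Hmgcs1. In the SCN the standard deviation of Sqle was 0.12, and 30.9% of genes of like level varied less.

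The deviations went together in liver. Over 36 libraries, Pearson's r between the deviations of any 2 of Srebf2, Hmgcs1, Sqle, Lss and Cyp51 from their group means lay between 0.84 and 0.96. Spearman's rho, which uses ranks, lay between 0.737 and 0.924 for the same pairs. MCD CT04 replicate 1 and MCD CT12 replicate 2, low in these genes, had the 2 largest TMM factors of the liver libraries (1.28 and 1.267). Their part in r was not tested. In 7 of the 12 liver groups the same library was highest in all 4 enzymes, and in 7 the same library was lowest. Insig1 followed them, with r from 0.69 with Cyp51 to 0.86 with Lss and 0.65 with Srebf2 (rho 0.601). Insig2 did not: its r with the 4 enzymes lay between -0.05 and -0.26, and with Insig1 it was -0.33. In the SCN the 10 pairs of Srebf2 and the enzymes had r between -0.35 and 0.52. These values are descriptions; the points share library, depth and dissection.

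**Figure D3:**
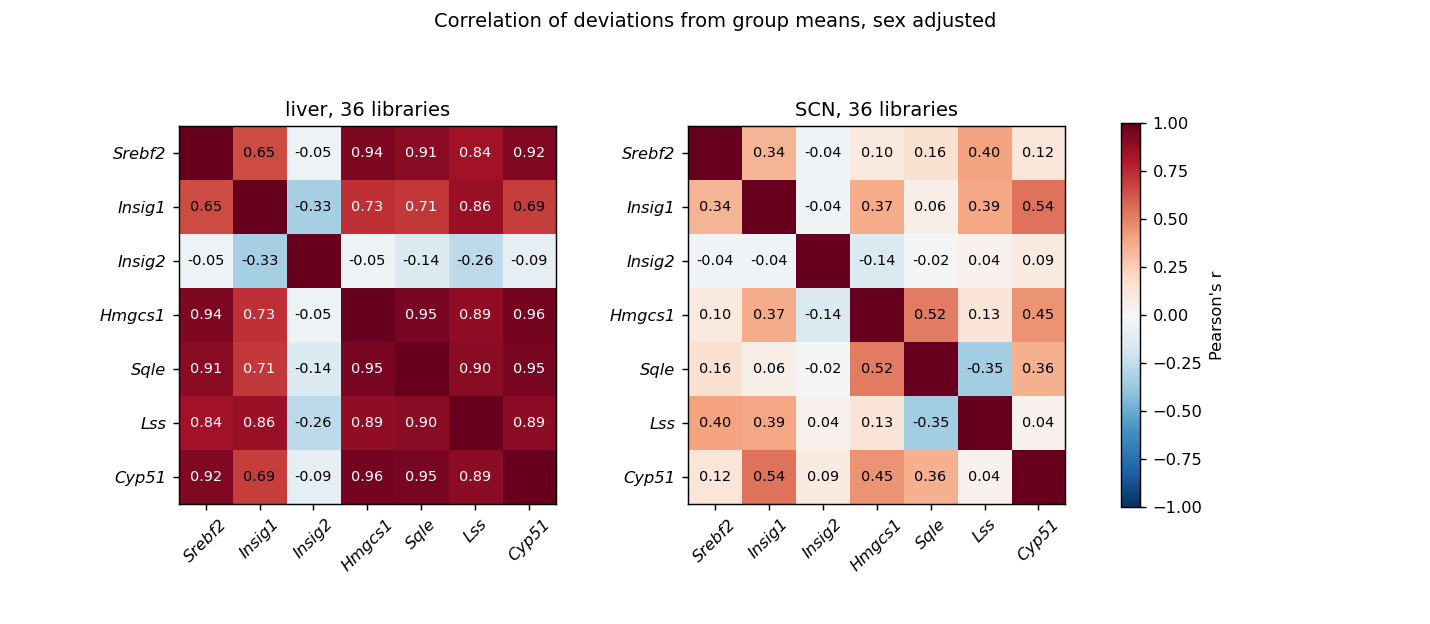
Pearson's r between the log2 deviations of each pair of genes from their group means, with sex adjusted, over 36 liver and 36 SCN libraries. In liver, Srebf2 and the 4 enzymes form a block with r of at least 0.84 (Spearman's rho, not drawn, of at least 0.737). Insig1 joins it less closely, and Insig2 stands outside it.

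Promoter windows of Srebf2 and Hmgcs1 are shown because, of the members, these 2 hold letters of a sterol response element, the kind of site SREBP binds, near the start site. The windows reach from 250 bases before to 50 bases after the start site (RefSeq, build GRCm38.p6); 6 of the 7 members matched such a window, and Sqle did not. The letters TCACNCCAC and TCACCCCA were searched on both strands; a TCACCCCAC holds both. The first is in 1.24% and the second in 1.56% of 32851 windows of this length. Capitals mark the match, which begins 162 bases before the start site in Srebf2 (chr15:82147019-82147318, plus strand) and 137 bases before it in Hmgcs1 (chr13:119690101-119690400, plus strand).
Srebf2: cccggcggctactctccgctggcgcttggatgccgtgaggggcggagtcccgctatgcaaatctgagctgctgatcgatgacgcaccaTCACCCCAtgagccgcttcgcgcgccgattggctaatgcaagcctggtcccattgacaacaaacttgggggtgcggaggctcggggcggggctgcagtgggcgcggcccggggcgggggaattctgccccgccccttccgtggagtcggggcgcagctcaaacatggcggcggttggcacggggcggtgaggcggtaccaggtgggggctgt
Hmgcs1: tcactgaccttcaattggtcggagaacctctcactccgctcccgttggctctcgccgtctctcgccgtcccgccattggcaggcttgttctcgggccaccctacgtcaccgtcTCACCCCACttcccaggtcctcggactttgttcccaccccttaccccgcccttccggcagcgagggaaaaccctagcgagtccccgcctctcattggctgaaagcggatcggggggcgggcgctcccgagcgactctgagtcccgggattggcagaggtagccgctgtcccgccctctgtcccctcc
These letters were not found in the windows of Insig1, Insig2, Lss and Cyp51. A match describes the sequence and does not show a bound site.

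Insig2 followed a daily course in liver on both diets. On the control diet it was highest at CT00 (290, 290 and 435 CPM) and lowest at CT08 (80.7, 104 and 133 CPM), 3.19-fold apart in the means, with CT12 as low (71.3, 112 and 135 CPM). On MCD it was highest at CT00 (232, 243 and 333 CPM) and lowest at CT08 (73.8, 81.4 and 88.7 CPM). The fitted 24 h wave had an amplitude, the height of the peak over the mean, of 0.90 on the log2 scale and a peak at 23.0 h on control (adjusted p = 3.01e-06). On MCD the amplitude was 0.96 and the peak at 22.6 h (adjusted p = 8.95e-07). The difference between the waves did not pass (adjusted p = 0.942). In libraries of high mt-Nd6 alone neither wave was called (amplitudes 0.76 and 0.84, adjusted p = 0.0776 and 0.188).

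Hmgcs1 was the other member with a called wave in liver on control, with an amplitude of 1.03 and a peak at 23.5 h (adjusted p = 0.0103). Its control libraries read 192, 435 and 589 CPM at CT00, the highest mean, and 54.4, 74.5 and 126 CPM at CT12, the lowest. The call was lost without replicate 1 or replicate 3 of every group (adjusted p = 0.146 and 0.0821) and in libraries of high mt-Nd6 alone (0.409). On MCD its amplitude was 0.69 with a peak at 3.50 h (adjusted p = 0.0737), and 0.26 without MCD CT04 replicate 2 (adjusted p = 0.598). Sqle, Lss and Cyp51 had fitted peaks between 20.6 and 23.5 h on control and between 4.14 and 5.15 h on MCD, but neither set of waves passed. Insig1 had an adjusted p of 0.144 on control and 0.942 on MCD, and Srebf2 of 0.0853 and 0.479. Lss had an adjusted p of 0.0803 on control and of 0.137 for the difference between the diets. In liver, 17.8% of genes were called rhythmic on control and 28.2% on MCD, against 2 and 1 of the 7 members. The wave differed between the diets in 4.87% of genes and in 0 of the 7 members by edgeR, with 2 members at an unadjusted p under 0.05, 1 member by DESeq2 (Lss) and 0 by limma. With DESeq2, 4 members were rhythmic on control, Srebf2 and Lss in addition. The same 4 were called by edgeR without MCD CT04 replicate 1 or 2, which enter the shared estimate of spread. Without MCD CT04 replicate 1, 3 members were called on MCD, with Hmgcs1 and Cyp51 added, and Lss was called for the difference, as it was without control CT08 replicate 3.

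Insig2 has alternative first exons, and its exon use differed between the diets in liver. It lies on the minus strand of chromosome 1, and exon-bin counts split it into 36 bins, the same number as in the GENCODE M21 annotation (build GRCm38), through which the bins were placed by number. Bins 35 and 36 (chr1:121332492-121332589) are the upstream first exon, and bins 25 to 34 (chr1:121327521-121328024) hold the first exons called downstream here. Some annotated transcripts begin still further downstream, as Insig2-213 does in bin 24 (chr1:121323139-121323191), and their first bins were not counted with these. The liver is known to make a liver-selective Insig2 transcript from a promoter of its own beside the widely expressed one. Of 14108 genes tested for exon use by diet in 34 liver libraries, 3.87% were called, and of the members Insig2 alone was (Simes adjusted p = 0.0023, edgeR). The other 6 members had an adjusted p of 1. Use of bin 26 rose by 0.90 on MCD relative to the whole gene on the log2 scale (1.87-fold, adjusted p = 0.000957) and that of bin 29 by 0.98 (1.97-fold, adjusted p = 0.00537).

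The upstream exon was lowest at CT08 on both diets. In liver on control its bins held 8.07 CPM, taken over all bin counts of a library, in the 1 library used at CT00, 3.83, 8.45 and 9.62 at CT04, and 1.17, 1.76 and 1.76 at CT08. On MCD they held 6, 6.96 and 8.47 at CT00, 3.09, 3.37 and 3.79 at CT04, and 0.688, 1.07 and 1.52 at CT08. At CT04 the 3 MCD values were all below the 3 control values, by a narrow margin (highest 3.79, lowest 3.83). The downstream exons were in the opposite order at that time, with 0.756, 1.63 and 1.94 on control and 3.21, 3.87 and 4.89 on MCD. Downstream values were also higher on MCD without overlap at CT12 (0.973 to 1.22 against 1.84 to 2.28) and CT16 (0.524 to 1.6 against 1.64 to 2.17). The upstream values overlapped at those times. As a share of the counts in bins 25 to 36, the upstream exon made up 81.4% to 85.5% at CT04 on control and 38.7% to 54.2% on MCD. At CT20 the shares overlapped, with 66.3% to 83.8% on control and 60.9% to 82.8% on MCD. A read over 2 bins counts in both, so these are not molecules. Bin 35 itself stood at -0.36 relative to the gene (adjusted p = 0.545) and was not called.

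The call for Insig2 exon use was lost without replicate 3, the females, where bin 26 stood at 0.53 (adjusted p = 1), and with a term for the kind of library in the gene-level test, where bin 26 kept 0.78 (adjusted p = 0.0236). In the SCN the upstream exon had 0 counts in 36 of 36 libraries. With 3 counts as the limit that 0 allows in a library, each held at most 0.0444 to 0.164 CPM of bin counts, and the mean of the liver controls, 4.59, was at least 28-fold higher. These limits cover counting error only. Exon use by diet was called in 0.0458% of 15275 SCN genes and in 0 of the 7 members by edgeR's Simes and gene-level tests, with 0 at an unadjusted p under 0.05; no other tool was run.

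**Figure D4:**
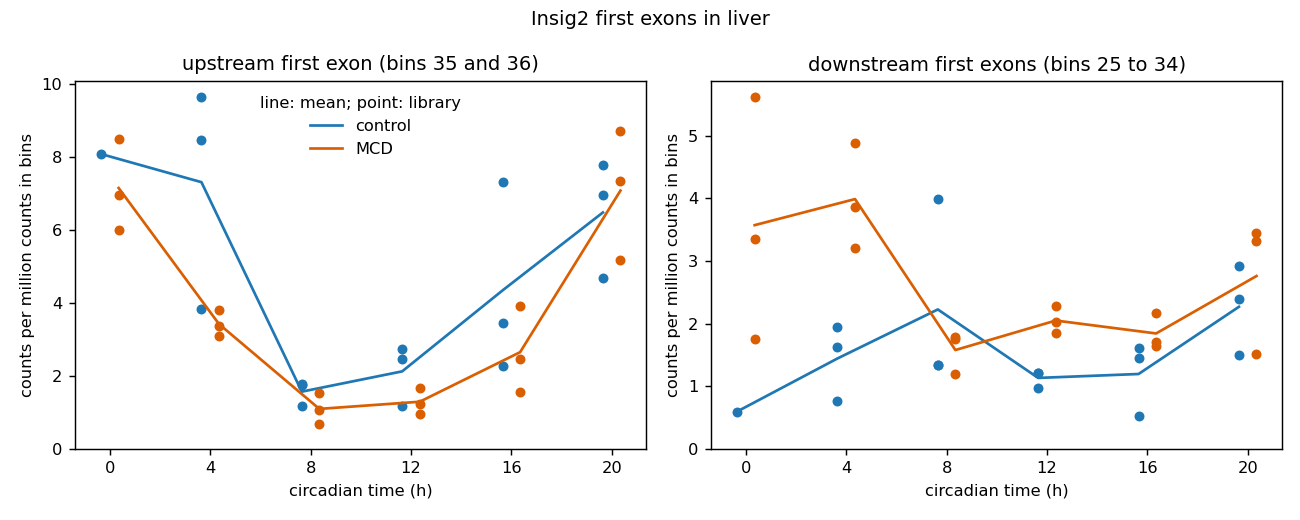
Counts in the bins of the upstream and the downstream first exons of Insig2, in CPM of all bin counts, against circadian time in 34 liver libraries; points are libraries and lines means. The upstream exon falls from CT00 to CT08 on both diets. At CT04 the diets are apart in both panels without overlap, narrowly so in the upstream one, and in the downstream panel they are also apart at CT12 and CT16.

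The windows around the 3 Insig2 start sites in RefSeq are shown because these exons are used differently. Capitals mark CCAAT boxes (ATTGG on the other strand), which are in 37.4% of windows. The upstream one (chr1:121332540-121332839, minus strand) holds 3 and the 2 downstream ones (chr1:121327975-121328274 and chr1:121327629-121327928, minus strand) hold 0.
Insig2 upstream: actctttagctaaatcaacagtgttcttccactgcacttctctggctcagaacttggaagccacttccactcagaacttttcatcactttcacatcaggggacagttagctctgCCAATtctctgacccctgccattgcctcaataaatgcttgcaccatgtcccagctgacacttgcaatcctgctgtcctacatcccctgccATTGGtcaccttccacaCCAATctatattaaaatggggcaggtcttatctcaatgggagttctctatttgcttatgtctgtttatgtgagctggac
Insig2 middle: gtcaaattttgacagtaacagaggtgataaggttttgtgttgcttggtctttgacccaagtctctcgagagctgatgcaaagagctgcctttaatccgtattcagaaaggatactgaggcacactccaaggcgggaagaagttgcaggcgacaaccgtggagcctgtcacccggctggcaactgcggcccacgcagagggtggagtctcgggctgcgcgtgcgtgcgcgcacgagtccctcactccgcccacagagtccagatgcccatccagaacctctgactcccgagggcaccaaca
Insig2 downstream: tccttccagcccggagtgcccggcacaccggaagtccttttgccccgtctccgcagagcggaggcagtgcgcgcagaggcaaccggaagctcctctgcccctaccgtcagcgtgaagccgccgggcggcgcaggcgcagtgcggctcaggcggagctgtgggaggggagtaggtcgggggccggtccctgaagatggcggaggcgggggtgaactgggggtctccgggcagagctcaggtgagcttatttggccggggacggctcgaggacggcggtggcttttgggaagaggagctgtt
Both downstream windows hold 1 GC box each (GGGCGG, either strand, in 35.7% of windows), and the upstream window holds 0.

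In the fit over both diets, the female minus male difference in liver was above 0 for all 7 members, and none passed. By diet, the mean of females was the higher one for 6 of 7 members on control (Insig2 was the exception) and for 2 of 7 on MCD (Srebf2 and Insig2). Sqle in control females ranged from 63.1 to 156 CPM (median 118 CPM, n = 6) and in control males from 20.6 to 116 CPM (median 62.9 CPM, n = 12), while on MCD the medians were 48.3 and 51.3 CPM. The female minus male difference over both diets was 0.52 ± 0.29 for Sqle (log2; adjusted p = 0.33). The diet difference in females minus that in males was -1.04 ± 0.56 for Sqle (adjusted p = 0.476) and -0.73 ± 0.39 for Insig1 (adjusted p = 0.473). With edgeR, 9.44% of genes were called for sex and 1.77% for the diet difference by sex, and 0 of the 7 members in either. At an unadjusted p under 0.05 there were 1 (Srebf2) and 0, and DESeq2 and limma gave 0 in both. Without MCD CT04 replicate 2, Srebf2 was called for sex. Each group has a single female.

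In the SCN no member passed the test for diet. Hmgcs1 ranged from 145 to 221 CPM on control (median 188 CPM) and from 143 to 219 CPM on MCD (median 173 CPM), and its mean was lower on MCD at 6 of 6 times. Its averaged difference was -0.13 ± 0.04 (SE, log2; unadjusted p = 0.00371, adjusted p = 0.486), so it did not pass. The other 6 members lay between -0.08 for Cyp51 and 0.01 for Insig2, and all 7 intervals together reached from -0.22 to 0.08. With edgeR, 0.0635% of the SCN genes were called, and 0 of the 7 members, with 1 at an unadjusted p under 0.05 and 0 by DESeq2 and limma. At CT20, Cyp51 read 107, 114 and 116 CPM in control mice against 79.2, 87 and 100 CPM in MCD mice without overlap, a difference of -0.35 ± 0.10 (adjusted p = 0.451). At CT00, CT04, CT08, CT12, CT16 and CT20, 0.00635%, 0.0444%, 0%, 0%, 0.00635% and 0.00635% of genes were called by edgeR and no member at any of them. Unadjusted p fell under 0.05 for 1 member at CT00 and 3 at CT20, and DESeq2 and limma called 0.

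Sqle, Cyp51 and Srebf2 followed a daily wave in the SCN on the control diet, which 15.1% of genes did. Sqle was highest at CT20 (95.1, 113 and 115 CPM) and lowest at CT08 (74.9, 76.6 and 82.7 CPM). Its wave had an amplitude of 0.25 on the log2 scale and a peak at 18.7 h (adjusted p = 0.000228). Cyp51 had an amplitude of 0.23 and a peak at 19.7 h (adjusted p = 0.000795), and Srebf2 of 0.155 with a peak at 17.5 h (adjusted p = 0.00945). On MCD, where 16.1% of genes were called, Sqle (0.21, peak 16.5 h, adjusted p = 0.00158), Srebf2 (0.15, peak 17.4 h, adjusted p = 0.0119) and Insig2 (0.13, peak 9.26 h, adjusted p = 0.0293) passed. Cyp51 had an adjusted p of 0.0625 on MCD with edgeR and of 0.0338 with limma. Insig1, Hmgcs1 and Lss passed on neither diet, with adjusted p between 0.277 and 0.791. The waves differed between the diets in 0.0127% of genes and in no member by edgeR, DESeq2 or limma; Cyp51 had an unadjusted p of 0.0183. Without replicate 2 of every group, 1 member was called on control and 0 on MCD.

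**Figure D5:**
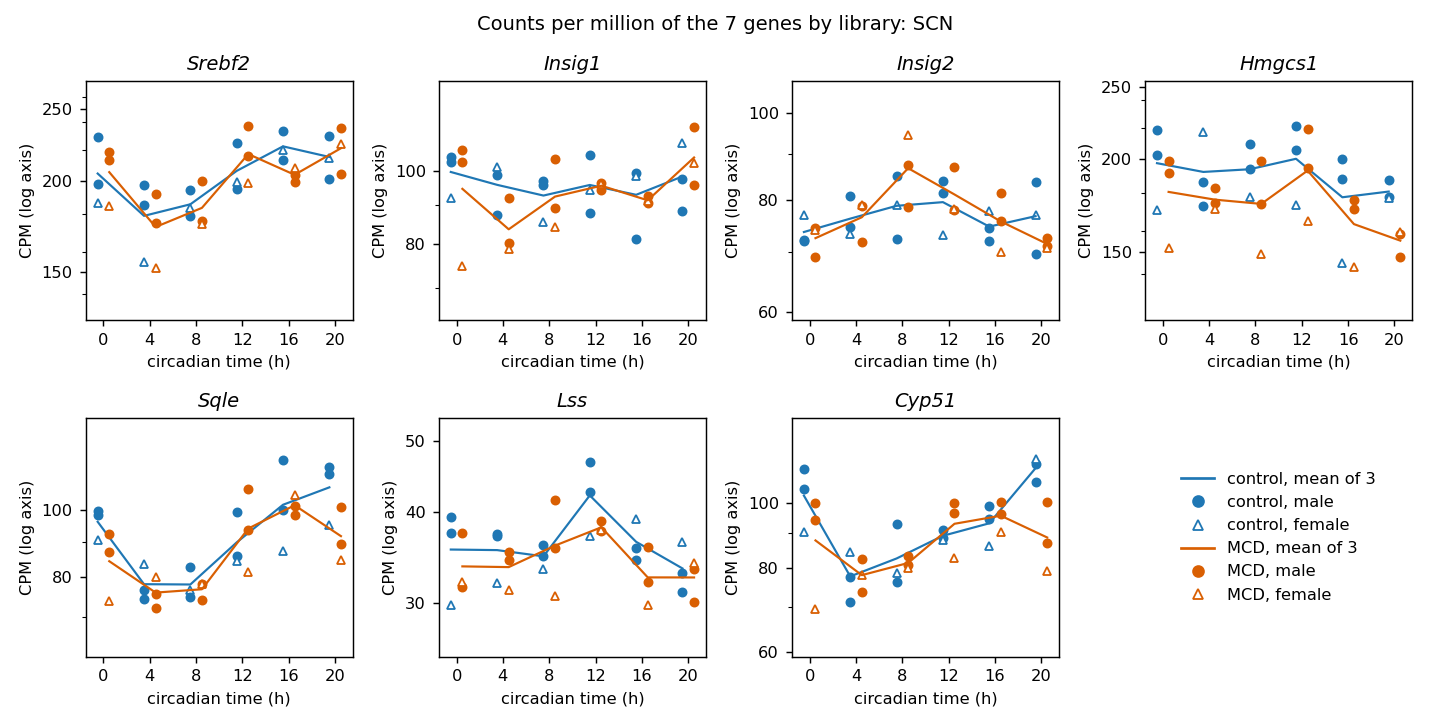
Level of each gene in CPM (log axis) against circadian time in the 36 SCN libraries; circles are males, triangles females, lines the means of 3. Sqle and Cyp51 are highest at CT20 on control, and the axes span far less than in liver: Sqle runs from 72.3 to 118 CPM.

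Hmgcs1 was lower in the SCN of females, by 0.185 ± 0.0457 on the log2 scale (SE; adjusted p = 0.0116); 9.89% of genes were called for sex in either direction. On control, 6 females ranged from 145 to 217 CPM (median 175 CPM) and 12 males from 173 to 221 CPM (median 197 CPM). On MCD the females ranged from 143 to 171 CPM and the males from 148 to 219 CPM. In the same fit over both diets the other 6 members were lower in females too, by up to 0.12, without passing. With library totals as the scaling, 4 members were called. That scaling moved the median of all genes from -0.02 to -0.05, and 2045 genes were called against 1558. Without replicate 1 of every group, 0 members were called. Leaving out single libraries gave 1 to 3 members: Srebf2 was added without control CT08 b, control CT12 replicate 2, control CT16 replicate 2, control CT20 replicate 1, MCD CT16 replicate 3 or MCD CT20 replicate 1, Cyp51 without control CT04 replicate 3, and both without control CT20 replicate 3. No member passed the test for a diet difference that varied with sex, and the 95% intervals of the 7 members reached from -0.348 for Insig1 to 0.217 for Sqle; 0% of genes were called by edgeR, with 0 members at an unadjusted p under 0.05 and 0 by DESeq2 and limma. Of the 10 astrocyte markers, 4 were higher in females, and 1 of 10 SCN markers was higher and 2 lower; their part in the Hmgcs1 difference was not tested.

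The 2 tissues held the genes at different levels on the control diet. Per kilobase of annotated exon, liver held 127 ± 55.2 CPM of Insig1 (SD, n = 18), 61.9 ± 29.7 of Insig2, 58.9 ± 32.2 of Hmgcs1, 29 ± 9.55 of Cyp51, 14.6 ± 7.17 of Sqle, 10.1 ± 1.94 of Srebf2 and 9.01 ± 3.53 of Lss. In this order, Hmgcs1 lay within the larger SD of Insig2, Cyp51 of Hmgcs1, Srebf2 of Sqle and Lss of Srebf2. The order in the SCN was Hmgcs1 (41.4 ± 4.37), Insig1 (31 ± 2.42), Srebf2 (28.1 ± 2.92), Insig2 (22.1 ± 1.38), Cyp51 (21.1 ± 3.07), Sqle (16.6 ± 2.49) and Lss (3.37 ± 0.378). There, Srebf2 lay within the larger SD of Insig1 and Cyp51 of Insig2. The lengths join the exons of all annotated transcripts, 10787 bases for Lss and 7184 for Srebf2, and some stretches are in 1 transcript only. With the length of a single transcript the order could differ, which was not computed. In 1 fit of both tissues Srebf2 was lower in liver by 0.63 ± 0.07 log2 units (SE; adjusted p = 3.02e-11), while the other 6 members were higher, from 0.46 for Sqle (adjusted p = 0.0477) to 2.81 for Insig1 (adjusted p = 8.26e-22). Of the 14491 genes in both tables, 90.4% were called, as were 7 of 7 members. Scaling by library totals moved the median of all genes from -0.04 to -0.75 and put Sqle at -0.26 (adjusted p = 0.239), the reverse direction. Sqle was not called either with DESeq2 (adjusted p = 0.0595), with limma (0.125), without replicate 1, 2 or 3 of every group (0.0773, 0.284 and 0.352) or with a replicate block (0.0947); the other 6 members were called in each of these.

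The diet difference itself was unlike in the 2 tissues for 3 members. It was lower in liver than in the SCN by 0.93 ± 0.20 on the log2 scale for Insig1 (adjusted p = 0.000215), by 0.64 ± 0.18 for Lss (adjusted p = 0.00452) and by 0.42 ± 0.11 for Insig2 (adjusted p = 0.00186). Insig2 did not pass with library totals (-0.26, adjusted p = 0.0546) or without replicate 1 of every group (-0.38, adjusted p = 0.0716), and Lss did not without replicate 3 (-0.45, adjusted p = 0.159). Of all genes, 34.7% were called, near the share of the 7 members, and that share was not tested. In the SCN alone, 0.0635% of genes and 0 members were called for diet. Exon use differed between the tissues in all 7 members, which it did in 53.0% of 17833 genes. In Insig1, bin 4 (chr5:28074666-28075061), found in 1 of its 2 transcripts, was used 7.81-fold more in liver relative to the gene (adjusted p = 1.25e-11). In Lss, bin 39 at the 3′ end of the gene (chr10:76556619-76557138) stood at -3.12 (adjusted p = 1.47e-19). The bin at the 3′ end was also used less in liver in Srebf2 (-0.99, adjusted p = 1.72e-09), Cyp51 (-0.59, adjusted p = 0.00837) and Insig2 (-0.715, adjusted p = 0.0045). That of Insig2 did not pass without replicate 1 or 2 of every group (adjusted p = 0.0795 and 0.22). Insig1 (-0.51, adjusted p = 0.0837) and Sqle (-0.465, adjusted p = 0.0883) did not pass, and the 3′ end bin of Hmgcs1 was not tested. The SCN RNA came from laser-dissected tissue, and the part of RNA quality in these end bins was not tested. Without replicate 2 of every group, 4 members were called.

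Other genes of the pathway were read against the 46.6% of all liver genes called for diet and the 21.2% called lower on MCD. Of 17 other enzymes of sterol synthesis, 1 was called higher and 9 lower on MCD, with a median difference of -0.61 against 0.02 for all genes. Tm7sf2, a sterol reductase, fell from 101 ± 24.4 to 28.9 ± 9.33 CPM (SD, n = 18; -1.79 ± 0.18, adjusted p = 1.85e-08), Mvd, the mevalonate diphosphate decarboxylase, by 1.16 ± 0.31 (adjusted p = 0.00356) and Sc5d, the sterol desaturase, by 1.13 ± 0.11 (adjusted p = 9.92e-09). Among 12 genes of SREBP processing and INSIG turnover, 2 rose and 4 fell (median -0.08), a share near that of all genes: Srebf1, which encodes SREBP-1, by 1.23 ± 0.17 (adjusted p = 1.91e-06), Scap by 0.72 ± 0.07 (adjusted p = 2.36e-09), while Rnf145, a ubiquitin ligase, rose by 0.575 (adjusted p = 0.000138).

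Of 14 tested genes of sterol uptake, trafficking and esterification, 5 rose and 3 fell (median 0.12), against 46.6% called over all genes. Soat1, which esterifies cholesterol, rose by 0.64 ± 0.17 (adjusted p = 0.00256), Soat2 by 0.44 ± 0.08 (adjusted p = 9.47e-05), and Stard4, a sterol carrier, fell by 0.61 ± 0.15 (adjusted p = 0.00113). Of 12 genes of LXR and sterol efflux, 3 rose and 3 fell (median 0.02), again near the share of all genes. Ch25h was at 0.0499 ± 0.0686 CPM in control mice (SD, n = 18) against 0.196 ± 0.159 CPM in MCD mice, too low to read a fold from. Cyp27a1, a sterol hydroxylase, fell by 0.70 ± 0.10 (adjusted p = 1.18e-06) and Abcg1 rose by 0.64 ± 0.16 (adjusted p = 0.0014). In the SCN, 0 genes of these 4 lists were called for diet by edgeR. The lists held 17, 12, 13 and 9 tested genes there, with medians between -0.08 and 0.05.

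The genes whose levels were most like those of the 4 enzymes over 36 liver libraries were Fdft1 (r = 0.955), Idi1 (0.938), Fdps (0.932), Idi1-ps1 (0.926) and Gm3571 (0.924), measured by Pearson's r of log2 CPM with their mean z score. Fdft1, Idi1 and Fdps are enzymes of the same pathway, and Idi1-ps1 can share reads with Idi1. Srebf2 had r = 0.727 on this scale, Insig1 0.768 and Insig2 0.367. Nearest to Insig1 were Mblac2 (0.893), Rnf103 (0.886), Gpam (0.882), Sc5d (0.866) and Pmvk (0.863), and nearest to Insig2 were Asap2 (0.929), 4932438A13Rik (0.917), Clpx (0.901), Psmd11 (0.9) and Stra6l (0.9). In the SCN the gene most like the 4 enzymes was Msmo1 (0.727), and the fifth had r = 0.69. The nearest to Insig1 there was A230051N06Rik (0.642) and to Insig2 Ostc (0.698). The points of these correlations share diet, time and library, and they are given as descriptions.

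Gene models overlap for 5 of the 7 members, and whether counting used the strand is not given in the sources used here. In GENCODE M21, Hmgcs1 overlaps the antisense gene Gm48342, Lss the antisense gene 4930483K19Rik, Cyp51 the gene Akap9 on the other strand, Insig2 the gene Gm37174, and Srebf2 the genes Mir33 and Gm49502. Reads of these neighbours could be counted with the members. Insig1 and Sqle have no such overlap.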

How the data were processed

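RNA was measured in 36 liver and 36 SCN libraries. The authors deposited raw gene counts, with 1 table for each tissue, and exon-bin counts, with 1 file for each library. The submitters' processing notes name the build GRCm39 and the tools Trimmomatic, HISAT2, StringTie and DESeq2 without roles or versions; the counter, annotation release and strand setting were not given in the sources used here. Per the file headers, 2 columns of each gene table share the name of a control CT08 male and are called a and b; the exon-bin files of liver control CT00 replicates 1 and 2 end early and were not used.

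Genes were tested with edgeR 4.0.16 (R 4.3.3): TMM scaling, filterByExpr with a count minimum of 10, quasi-likelihood test with 12 groups and sex per tissue, and Benjamini-Hochberg adjustment over all genes tested (threshold 0.05). Rhythms are cosine waves with a period of 24 h. Levels are CPM with TMM scaling, and log2 levels use a prior count of 2. Intervals are at 95%. Exon use was tested with edgeR's diffSpliceDGE, whose coefficients were converted to log2. Scripts were tested on simulated data. Alternatives were DESeq2 1.42.0, limma 3.58.1 with voom, library totals, no filter, a replicate block, the kind of library, and left-out libraries and replicates. The rule for names was all 7 members in every comparison (those not called may be given together as a range), up to 3 called genes of largest change per other list, and the 5 genes of most like pattern; in the SCN only the first of these is named. The values of some genes of these lists are not reported here, though the counts of each list include them. The members and lists were chosen with earlier results of these data known. Bin positions and promoters are on GRCm38, matched by bin number and gene symbol, since bin numbers per member equal those of GENCODE M21. Within groups, every pair of libraries differed by more than sampling noise. The replicates of a group are separate mice.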

Additional observations from a re-analysis of the deposited data

Results flagged for a closer look

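The diet difference, MCD minus control averaged over 6 times, differed between liver and SCN for 3 members in the test of the difference itself (edgeR quasi-likelihood test). The difference in liver minus that in the SCN was -0.932 ± 0.199 on the log2 scale for Insig1 (SE; adjusted p = 0.000215), -0.421 ± 0.108 for Insig2 (adjusted p = 0.00186) and -0.643 ± 0.182 for Lss (adjusted p = 0.00452). Without replicate 1 of every group Insig2 stood at -0.378 (adjusted p = 0.0716) and with library totals at -0.263 (adjusted p = 0.0546), and without replicate 3 Lss stood at -0.452 (adjusted p = 0.159). All 3 are genes that fell in liver. Of all genes, 34.7% were called in this comparison, near the share of the members, and that share was not tested.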

How the results depend on the processing

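Values below are counts of the 7 members called, unless a gene is named; the cause of a change was not tested. Of 268 pairs of member and comparison, 219 kept their call under every alternative except single left-out libraries, and of 877 values under alternatives of results that were called, 1 had the other sign: Sqle in liver against SCN, at -0.259 with library totals. Of 7154 such values of results that were not called, 239 had the other sign. For diet in liver, 1 member was called in libraries of high mt-Nd6 alone against 3. For the rhythm on control the count was 4 with DESeq2 and 0 with high mt-Nd6 alone, against 2; on MCD it was 2 with DESeq2, 2 with low and 0 with high mt-Nd6 alone, against 1; for the difference it was 1 with DESeq2, against 0. DESeq2 called 1 at CT00 and 2 at CT04, limma 1 at CT04 and 0 at CT20, and without control CT08 a there were 1 at CT00 and 2 at CT04. Library totals gave 1 at CT12, 1 at CT16, 1 for sex in liver and 4 for sex in the SCN, where DESeq2 gave 2. No filter and a term for the kind of library each gave 0 at CT20, and that term gave 0 for exon use in liver. Leaving out replicate 1, 2 or 3 of every group gave 2 to 3 for diet in liver, 1 to 2 for the rhythm on control, 0 to 1 at CT04, 0 at CT16 and CT20, 1 to 3 and 0 to 2 for the SCN rhythms on control and MCD, 0 to 1 for sex in the SCN, 0 to 1 for exon use in liver and 4 to 7 for exon use between tissues. For sex, only replicate 1 or 2 could be left out, since replicate 3 is always the female. Leaving out single libraries gave 3 to 5 for diet in liver, 2 to 4, 1 to 3 and 0 to 1 for its rhythms on control, on MCD and their difference, 0 to 1 at CT00, 0 to 2 at CT04, 0 to 2 at CT16, 0 to 1 at CT20, 0 to 1 for sex in liver, 2 to 4 for the SCN rhythm on MCD and 1 to 3 for sex in the SCN.

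Replicate numbers were not taken to pair the samples, since not every pair in a tissue was over the threshold and replicate 3 is always the female: same-numbered libraries of the 2 diets deviated together with r over 0.1 in 13 of 16 pairs in liver (median 0.241, other pairs -0.122; 13 of 16 correlated best with their own number) and in 8 of 16 in the SCN. With a replicate block in place of sex, 4 members were called for diet in liver (Sqle added, -0.723, adjusted p = 0.0474), 1 at CT04 in liver (Insig2) and 2 for the SCN rhythm on control, where 1248 genes were called against 2378.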
